A study of Mus musculus with 12 samples.

Results

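The RNA of 10 genes associated with immature natural killer (NK) cells was followed through 12 bulk RNA sequencing libraries: Cd27, Kit, Emb, Thy1, Ctla2a, Cd7, Il6ra, Cd93, Rgs1 and Lgals3. They were taken from the deposited table of 37991 genes by their mouse Ensembl identifiers, and all 10 were found. Each had at least 1 FPKM (a fragment level scaled by gene length and by library size) in 3 or more libraries, the filter that 12384 genes passed. The name "surface genes" fits 7 of them. Ctla2a encodes an inhibitor of cathepsin proteases, Rgs1 an intracellular regulator of G protein signalling, and Lgals3 a galectin that is found inside cells and is also secreted.

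NK cells are innate lymphocytes that kill virus-infected and tumour cells, and in mice they mature in the bone marrow. CD27 and CD11b (gene Itgam) are the surface pair by which the mouse stages are commonly sorted, with CD27 on the earlier stages and CD11b gained on the way to terminal maturity. Id2 is an inhibitor that holds E proteins, transcription factors that bind E box sequences, away from DNA. Tcf7 encodes TCF-1, a DNA-binding factor known for its part in early T lymphocytes and in innate lymphoid precursors.

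The cells were sorted as positive for NK1.1 and CD49b from bone marrow of C57Bl/6 mice, and each of the 4 groups had 3 libraries. In the protocol label the name of the second marker lacks a digit, and it was read as CD49b. In Id2KO (Ncr1Cre Id2F/F) the floxed gene was Id2, in Tcf1KO (Ncr1Cre Tcf7F/F) it was Tcf7, and in DKO (Ncr1Cre Id2F/F Tcf7F/F) both were floxed. Ncr1Cre places Cre under control of Ncr1, the gene of the NK receptor NKp46, and so targets Ncr1-expressing cells. Ctrl cells had no Cre. They are described as Id2F/F in one label and as Id2F/F or Id2F/F Tcf7F/F in another, with no mark of which library was which. All comparisons with Ctrl share its 3 libraries and also hold the presence of Cre, whereas DKO against Id2KO and DKO against Tcf1KO do not. Whether the 3 independent samples of a group were different animals is not stated, and the p-values cover only the spread among these libraries, which may be technical.

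The library sizes implied by the FPKM steps lay between 13977524 and 20209587 reads. Id2 RNA averaged 18 FPKM in Id2KO and 42.3 in DKO, against 152 in Ctrl and 114 in Tcf1KO. It was higher in DKO than in Id2KO (log2 fold change 1.18 ± 0.16 (SE), limma adjusted p = 0.0205). DKO against Id2KO therefore also holds a difference in remaining Id2 RNA, whose part in the values below was not tested. Tcf7 RNA averaged 84.8 FPKM in Id2KO and 62.4 in DKO, against 40.9 in Ctrl and 35.0 in Tcf1KO, and a value for the whole gene does not check the floxed segment, so the labels alone carry the direction in Tcf1KO and DKO. The 11 NK markers summed to between 1447 and 2643 FPKM. RNA of other cells was also measured: neutrophil markers summed to between 12.1 and 3636 FPKM, erythroid markers to between 88.1 and 4632, monocyte markers to between 74.3 and 730.4, and basophil and mast markers to between 17.1 and 775.7. No marker on these lists was at 0 in every library. Ctrl replicate 2, Id2KO replicate 3 and DKO replicate 3 had the lowest weights when limma weighted libraries by their scatter.

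In Ctrl, Thy1 had the highest level of the 10 genes (190.3 ± 39.1 FPKM, SD, n = 3), above 99.3% of the tested genes. Cd7 (111 ± 22.2), Ctla2a (109 ± 23.2) and Emb (86.7 ± 5.72) came next, and neighbours among these overlapped in their Ctrl libraries. Cd27 followed at 57.2 ± 2.86 FPKM and Rgs1 at 36.6 ± 15.3, each apart from its neighbours. Il6ra (4.28 ± 2.85), Cd93 (4.01 ± 0.370), Lgals3 (3.18 ± 0.399) and Kit (2.67 ± 0.602) stood lowest, and the libraries of neighbours in this order overlapped. The plot of every library shows where the groups part.

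**Figure D1:**
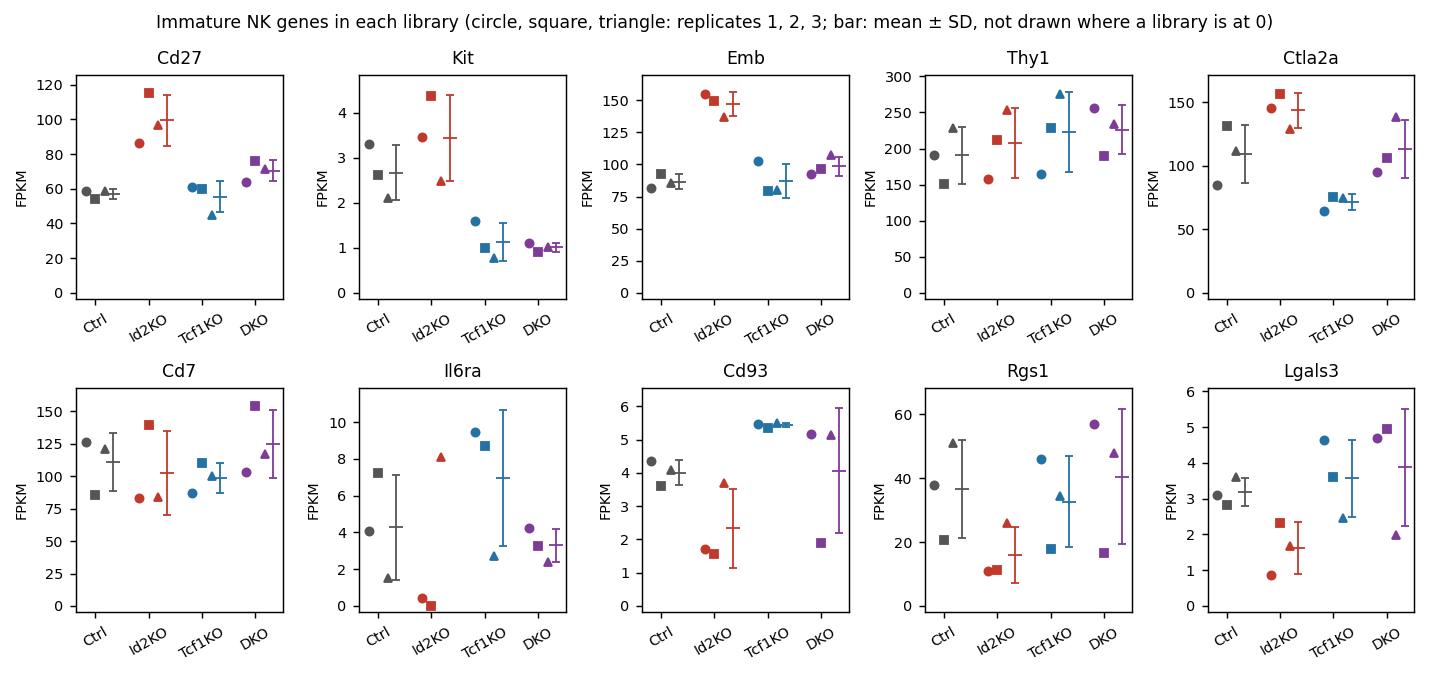
FPKM of the 10 genes in each of the 12 libraries, 1 panel per gene, with the mean and SD of each group of 3 beside its points (no bar where a library is at 0). Kit is low in all Tcf1KO and DKO libraries, Cd27 and Emb are highest in Id2KO, and Il6ra, Rgs1 and Cd93 spread widely within some groups.

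Fold changes below are differences of log2(FPKM + 1), with their standard error (SE) and a 95% interval where given; the added 1 understates changes of low genes. A gene was called where limma's adjusted p, over all 12384 tested genes, was under 0.05. Besides the single comparisons, the average Id2 effect sets the 6 Id2-targeted libraries (Id2KO and DKO) against the other 6, and the average Tcf7 effect sets the 6 Tcf7-targeted libraries (Tcf1KO and DKO) against the other 6.

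With Id2KO against Ctrl, 0 of the 10 genes were called, where 0.178% of all tested genes were. At an unadjusted p under 0.05 there were 3 of 10 (9.71% of all genes), and limma voom on recovered reads called 2, Cd27 and Emb. Tcf1KO against Ctrl called 0 of the 10, and 0% of all genes, with 2 of 10 at an unadjusted p under 0.05 (4.8% of all genes). DKO against Ctrl called 0 of the 10 (0.145% of all genes) and had 1 at an unadjusted p under 0.05 (9.44%). DKO against Id2KO called 0 (0.121%) with 5 at an unadjusted p under 0.05 (10.9%), and DKO against Tcf1KO called 0 (0.0565%) with 2 (6.73%). The average Id2 effect called 0 (0.299%) with 4 at an unadjusted p under 0.05 (10.9%), and voom called 2, again Cd27 and Emb. The average Tcf7 effect called 1 gene, Kit (0.371% of all genes), with 5 at an unadjusted p under 0.05 (9.74%), and voom called 1. In the other single comparisons voom called 0 of the 10.

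The 10 genes did not move as 1 group. Against Ctrl, 5 of 10 had a positive difference in Id2KO, with a median of -0.01 (all tested genes, -0.01) and a range from -1.17 (Rgs1) to 0.78 (Cd27). In Tcf1KO 5 of 10 were positive, with a median of -0.03, and in DKO 7 of 10, with a median of 0.11. The interaction, which asks whether the Id2 difference itself changes when Tcf7 is also targeted, called 0 of the 10 and 0% of all genes, with 1 of 10 (Emb) at an unadjusted p under 0.05 (5.94% of all genes), and voom also called 0.

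**Figure D2:**
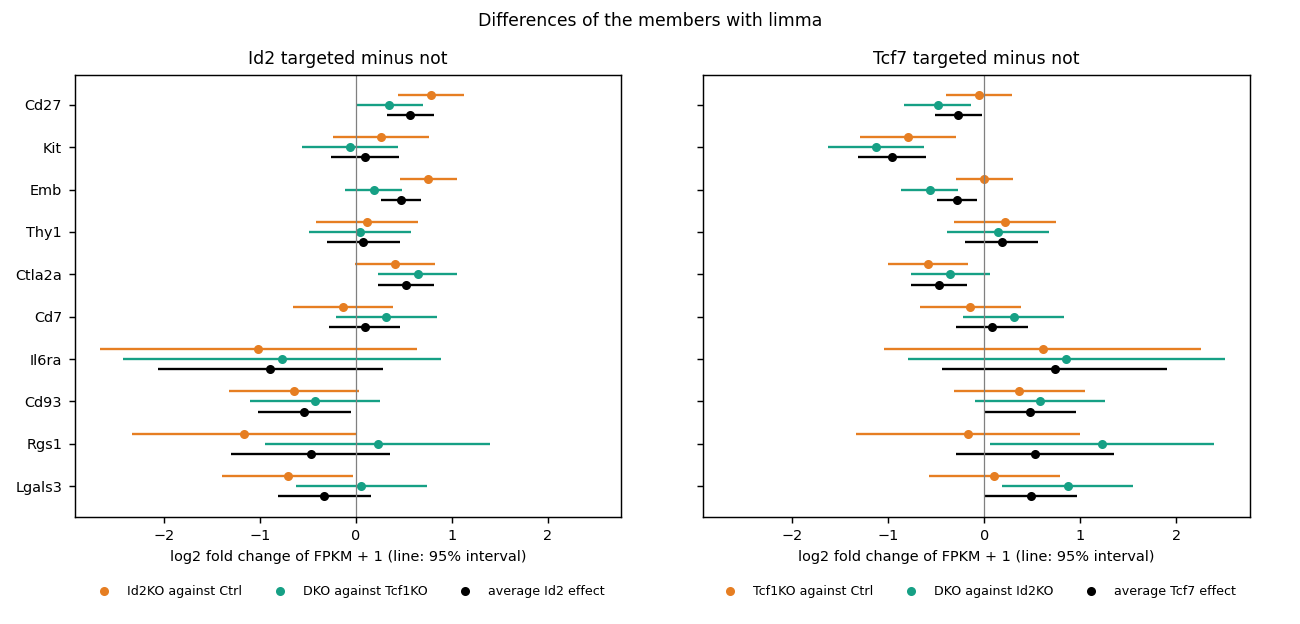
Difference in log2(FPKM + 1) of each gene, as points with 95% intervals, with Id2 targeted minus not (left) and Tcf7 targeted minus not (right), each for the pair of single comparisons and their average. The intervals of the average effect lie above 0 for Cd27, Emb and Ctla2a and below 0 for Cd93 on the left, and below 0 for Kit, Ctla2a, Emb and Cd27 and above 0 for Lgals3 on the right; of these, Kit alone on the right passed the adjusted test.

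Cd27 encodes a receptor of the tumour necrosis factor receptor family that binds CD70 and signals through TRAF proteins (ENSMUSG00000030336, GRCm38 chromosome 6, 125232622 to 125237010, minus strand). Its level was 59.0, 53.9 and 58.6 FPKM in the Ctrl libraries and 86.4, 115 and 97.0 in Id2KO. In Tcf1KO it was 61.1, 60.1 and 45.0 FPKM, and in DKO 63.7, 75.9 and 71.6. Every Id2KO library lay above every library of the other groups, and every DKO library above every Ctrl and Tcf1KO library. Of all tested genes, 13.9% had no overlap between Id2KO and Ctrl, 13.5% between DKO and Ctrl and 12.6% between DKO and Tcf1KO.

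The Id2KO difference for Cd27 was 0.78 ± 0.16 (SE; interval 0.44 to 1.13; limma adjusted p = 0.108) and the DKO difference from Tcf1KO was 0.35 ± 0.16 (adjusted p = 0.738), or 0.21 without Tcf1KO replicate 3. Over the 6 Id2-targeted libraries the level was 85 ± 18.9 FPKM against 56.3 ± 6.06 in the other 6 (SD), with no overlap, as for 65 of all tested genes (0.525%) in that direction. That average difference was 0.57 ± 0.11 with an adjusted p of 0.0734, so it did not pass. It passed with voom (adjusted p = 0.0314) and with libraries scaled to 1 median (adjusted p = 0.0377). Cd27 in DKO was 0.49 ± 0.16 lower than in Id2KO on the log2 scale (adjusted p = 0.271), again without overlap, as for 14.7% of all tested genes.

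Markers of other cells were read beside Cd27. The 11 neutrophil markers summed to 735.6 to 3147 FPKM in Ctrl and 12.1 to 745.4 in Id2KO, and to 1023 to 3636 in Tcf1KO and 172 to 439.5 in DKO, with 0 of 11 called in the average Id2 effect. The T and NKT markers were read too, since T cells also carry CD27. Their sums lay between 1026 and 1175 FPKM in Ctrl and between 1332 and 1780 in Id2KO, without overlap. Of the 12 tested, 1 was called higher in Id2KO than in Ctrl, Cd3d (1.39 ± 0.20, limma adjusted p = 0.0183), and 0 in the average Id2 effect. In Id2KO 7 of the 12 had a positive and 5 a negative difference, with a median of 0.15 (all tested genes, -0.01). Cd3e was at -0.04 ± 0.28 (adjusted p = 0.982). The part of these T and NKT markers in the Cd27 difference was not tested. In bulk samples fewer cells of a type and less RNA per cell cannot be told apart. With a score of the neutrophil, monocyte, basophil and erythroid markers as a term in the fit, the average Id2 difference of Cd27 was 0.60 ± 0.15 (adjusted p = 0.359).

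Cd27 was also set against Itgam, the gene of CD11b on the mature stages. Itgam stood at 9.69, 8.77 and 8.76 FPKM in Ctrl and at 1.14, 1.65 and 1.0 in Id2KO. It was at 10.7, 7.39 and 6.65 FPKM in Tcf1KO and at 4.29, 4.93 and 4.14 in DKO. It fell in Id2KO (log2 fold change -2.16 ± 0.19 (SE), limma adjusted p = 0.000974) and was higher in DKO than in Id2KO (1.28 ± 0.19, adjusted p = 0.0311). In the average Id2 effect the Itgam difference was -1.45 ± 0.13 (adjusted p = 0.00144). These changes of Itgam were known from earlier results of these data when the ratio was chosen, so the ratio is given as a description, with no test.

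The ratio of Cd27 to Itgam FPKM was 6.09, 6.14 and 6.69 in Ctrl and 75.9, 70.0 and 96.6 in Id2KO. It was 5.73, 8.13 and 6.76 in Tcf1KO and 14.8, 15.4 and 17.3 in DKO. As log2 of the values with 1 added, the ratio was 2.53 ± 0.0703 in Ctrl and 5.47 ± 0.130 in Id2KO, against 2.62 ± 0.227 for Tcf1KO and 3.71 ± 0.105 for DKO (SD, n = 3). The mean difference between the 6 Id2-targeted libraries and the other 6 was 2.02, the sum of the Cd27 difference of 0.57 and the opposite Itgam difference, and each gene alone already parted these libraries. The difference was 2.94 without Tcf7 targeting and 1.09 with it. Remaining Id2 RNA was also higher in DKO than in Id2KO, and its part here was not tested. The interaction was not called for either gene alone (adjusted p = 0.836 for Cd27 and 0.234 for Itgam), and for the ratio it was not tested.

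**Figure D3:**
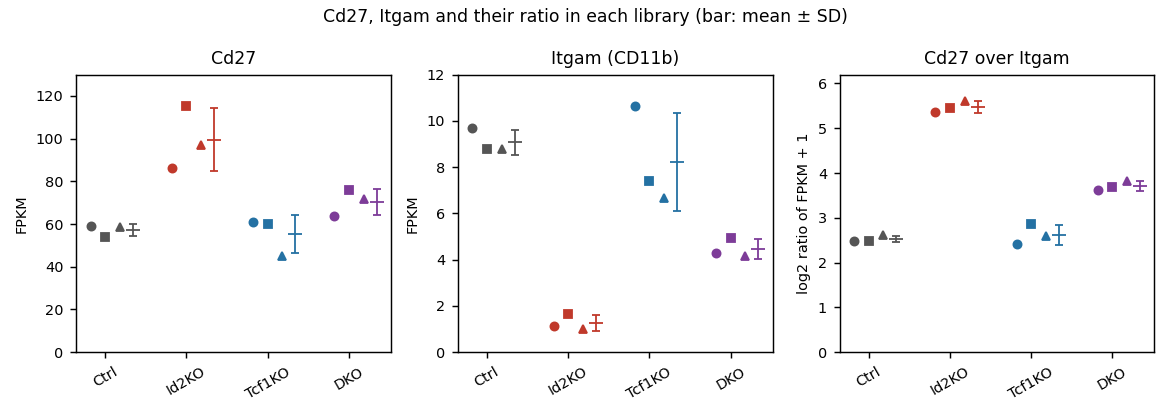
Cd27 FPKM, Itgam FPKM and the log2 ratio of both (1 added to each) in the 12 libraries, with the mean and SD of each group of 3. The ratio is highest in Id2KO (mean 5.47), next in DKO (3.71) and lower in Ctrl (2.53) and Tcf1KO (2.62).

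The RefSeq promoter of Cd27 is shown because E proteins, the partners of Id2, bind E boxes. The 250 bases before the start (chr6:125237028-125237277, minus strand, GRCm38.p6) hold 3 matches to the E box CANNTG, which reads the same on both strands, and they stand in capitals:
Cd27: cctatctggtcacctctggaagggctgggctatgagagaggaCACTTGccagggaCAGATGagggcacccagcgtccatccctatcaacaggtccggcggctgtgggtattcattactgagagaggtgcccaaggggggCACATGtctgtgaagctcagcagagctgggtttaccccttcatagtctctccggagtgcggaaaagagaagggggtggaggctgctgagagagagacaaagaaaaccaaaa
Of 32851 RefSeq promoter windows of this length, 66.2% hold at least 1 CANNTG. None of the 3 is CAGGTG or its reverse complement CACCTG, the form held by 17.2% of the windows, nor CAGCTG, held by 13%. The TCF motif, which reads CTTTGAT on one strand and, on the other, as ATCAAAG, is held by 3.21% of the windows and was not among these letters. A match is a description of the letters and not a measured binding site.

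Of the CD27 partner genes, the ligand gene Cd70 was at 0 in all 12 libraries. The adaptors Traf2, Traf3 and Traf5, the CD27-binding gene Siva1 and the kinase gene Map3k14 were tested, and 0 of these 5 were called in any comparison. Traf5 had 6.19 ± 0.733 FPKM in Ctrl and 5.65 ± 1.15 in Id2KO, and Siva1 6.40 ± 1.74 and 8.89 ± 2.18 (SD, n = 3).

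Kit, the receptor tyrosine kinase for stem cell factor (ENSMUSG00000005672, chromosome 5, 75574916 to 75656722, plus strand), is carried by progenitors, mast cells and some early NK cells. Its RNA was 3.30, 2.62 and 2.1 FPKM in Ctrl and 3.47, 4.38 and 2.47 in Id2KO. In Tcf1KO it was 1.60, 1.0 and 0.768 FPKM, and in DKO 1.10, 0.898 and 1.02. These rest on 180 to 788 reads per library. All 6 Tcf7-targeted libraries lay below all 6 others, which held for 44 of all tested genes (0.355%).

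Kit fell in the average Tcf7 effect, from 3.05 ± 0.827 to 1.07 ± 0.287 FPKM (SD, n = 6 libraries each; log2 fold change -0.96 ± 0.16 (SE), interval -1.31 to -0.61, limma adjusted p = 0.0385). Calls toward lower levels were made for 0.202% of tested genes. The size depends on the added 1, with -1.43 when 0.1 was added and -1.53 with voom (adjusted p = 0.0114). The call was lost in 11 of the 12 fits that left out 1 library, with adjusted p from 0.0515 to 0.124, and was kept without Id2KO replicate 3 (0.0235). The direction was the same in all of these fits.

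Taken singly, the Kit differences did not pass: -0.80 ± 0.23 for Tcf1KO against Ctrl (adjusted p = 0.632), -0.86 ± 0.23 for DKO against Ctrl (0.223) and -1.12 ± 0.23 for DKO against Id2KO (0.111). The groups did not overlap in any of the 3, where 10.7%, 13.5% and 14.7% of all tested genes did not. Id2 targeting left a Kit difference of 0.10 ± 0.16 (interval -0.25 to 0.45, adjusted p = 0.880).

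Markers of other cells that carry Kit were read beside it. The 10 basophil and mast markers summed to 168 to 644.6 FPKM in Ctrl and 17.1 to 100.7 in Id2KO, and to 51.6 to 775.7 in Tcf1KO and 57.3 to 614.7 in DKO, with 0 of 9 tested called in the average Tcf7 effect. Their sums were lowest in Id2KO replicates 1 and 2, where Kit was highest, and the order of the 3 libraries by Kit and by these markers was the same in 2 of 4 groups. The 7 stem and progenitor markers summed to at most 6.21 FPKM in any library. With the other-lineage score as a term, the Kit difference was -0.98 ± 0.18 (adjusted p = 0.0651). The part of basophil, mast and progenitor RNA in the Kit result was not tested.

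Lymphocyte markers were read beside Kit as well. The 12 T and NKT markers found, of 13 listed, summed to 1026 to 1175 FPKM in Ctrl and 1332 to 1780 in Id2KO, while the sums were 1431 to 1921 for Tcf1KO and 1885 to 2333 for DKO. Of these 12, 2 were called higher in the average Tcf7 effect, Cd3e (1.55 ± 0.20, limma adjusted p = 0.0162) and Trac (1.23 ± 0.19, adjusted p = 0.0255). In that effect 10 of the 12 had a positive and 2 a negative difference. Of the 11 NK markers 2 were called lower, Ncr1 (-1.10 ± 0.16, adjusted p = 0.0208) and Eomes (-0.69 ± 0.12, adjusted p = 0.0454), with 8 of the 11 negative and 3 positive. The part of these lymphocyte markers in the Kit result was not tested.

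The Kit promoter is shown beside that of Cd27 because Kit alone of the 10 genes was called in the average Tcf7 effect. That call was lost in 11 of the 12 fits that left out 1 library. The window before its first RefSeq start (chr5:75574737-75574986, plus strand, GRCm38.p6) holds no CANNTG and no CTTTGAT or ATCAAAG, so nothing stands in capitals:
Kit: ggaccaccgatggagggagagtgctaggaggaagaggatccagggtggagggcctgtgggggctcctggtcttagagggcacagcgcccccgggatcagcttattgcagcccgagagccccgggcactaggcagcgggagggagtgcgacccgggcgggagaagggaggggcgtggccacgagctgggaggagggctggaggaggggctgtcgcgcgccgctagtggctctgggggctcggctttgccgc
The window of the second RefSeq start held none either, which says only that these letters are not in these windows. The GENCODE gene starts at 75574916, so the last part of each window lies inside the annotated gene.

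Among the partners of KIT, Kitl, the ligand gene, averaged between 0.358 and 0.687 FPKM in the groups and was not tested. The 8 others were the adaptors Grb2, Gab2, Shc1 and Sos1, the kinase subunit Pik3r1 and the kinase Lyn, the ubiquitin ligase Cbl and the phosphatase Ptpn6, and 0 of 8 were called in any comparison. Cbl stood at 56.5 ± 5.92 FPKM in Ctrl and 56.9 ± 3.24 in Tcf1KO (SD, n = 3).

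By the root mean square difference of centred log2 profiles over the 12 libraries, the tested genes nearest to Kit were Trmt5 (0.21), Atp1b1 (0.23) and Anxa2 (0.24). Atp1b1, a subunit of the sodium pump, had 79.8 ± 19.2 FPKM in Ctrl and 89.1 ± 24 in Id2KO, against 50.7 ± 12.9 for Tcf1KO and 47.9 ± 7.45 for DKO (SD, n = 3). This likeness is a description of 12 libraries that share groups.

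Emb encodes embigin, a membrane glycoprotein of the immunoglobulin superfamily that escorts monocarboxylate transporters to the surface (ENSMUSG00000021728, chromosome 13, 117208536 to 117274415, plus strand). It stood at 81.5, 92.8 and 85.7 FPKM in Ctrl and at 155, 149 and 137 in Id2KO. In Tcf1KO it was at 102, 79.1 and 80.2 FPKM, and in DKO at 92.9, 96.2 and 107. The Id2KO libraries were above all 9 others, while DKO lay just above Ctrl and overlapped with Tcf1KO. Of all tested genes, 13.9% had no overlap between Id2KO and Ctrl, 14.7% between DKO and Id2KO and 13.5% between DKO and Ctrl.

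The Id2KO difference of Emb was 0.76 ± 0.13 (interval 0.46 to 1.05; limma adjusted p = 0.0624) and did not pass. It passed with array weights (adjusted p = 0.0390), with median scaling (0.0247) and with voom (0.0343). DKO was 0.57 ± 0.13 below Id2KO on the log2 scale (adjusted p = 0.162), and DKO differed from Ctrl by 0.19 ± 0.13 (adjusted p = 0.736). The interaction was -0.57 ± 0.19, with an unadjusted p of 0.0118 and an adjusted p of 0.831. The average Id2 difference was 0.47 ± 0.09 (adjusted p = 0.0796) and the average Tcf7 difference -0.28 ± 0.09 (adjusted p = 0.321). With the other-lineage score as a term, the Id2KO difference was 0.73 ± 0.18 (adjusted p = 0.302).

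The Emb promoter is shown because it was the only one of the 6 members matched in the RefSeq table (Cd27, Kit, Emb, Ctla2a, Il6ra and Lgals3) to hold the TCF motif. Its window (chr13:117220323-117220572, plus strand, GRCm38.p6) holds 2 E boxes, both CACCTG, and 1 ATCAAAG, all in capitals:
Emb: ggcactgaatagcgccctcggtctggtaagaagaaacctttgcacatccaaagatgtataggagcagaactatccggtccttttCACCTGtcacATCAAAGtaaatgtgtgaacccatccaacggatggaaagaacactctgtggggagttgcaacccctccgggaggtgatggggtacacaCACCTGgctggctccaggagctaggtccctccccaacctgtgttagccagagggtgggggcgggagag
The RefSeq start after this window lies inside the GENCODE gene, whose annotated start is at 117208536. The E boxes begin 166 and 68 bases before the RefSeq start. Il6ra and Lgals3 each also have CAGGTG in their windows.

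Embigin's partners were the related glycoprotein genes Bsg and Nptn and the transporters Slc16a1, Slc16a3 and Slc16a7, and 0 of the 4 tested were called (Slc16a3 did not pass the filter). Bsg, which encodes basigin, had 43.0 ± 2.04 FPKM in Ctrl and 41.2 ± 11.1 in Id2KO, against 42.4 ± 11.1 for Tcf1KO and 28.2 ± 7.61 for DKO (SD, n = 3). Its mean was lowest in DKO, where that of Emb was second to Id2KO.

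Ctla2a (ENSMUSG00000044258, chromosome 13, 60934155 to 60936625, minus strand) stood at 84.8, 131 and 112 FPKM in Ctrl and at 146, 156 and 129 in Id2KO. It was at 64.1, 75.3 and 74.5 FPKM in Tcf1KO and at 95, 106 and 139 in DKO. The Tcf1KO libraries were the lowest 3 of the 12, and Id2KO and Ctrl overlapped. Between Tcf1KO and Ctrl, 10.7% of all tested genes had no overlap. The average Id2 difference was 0.53 ± 0.13 (limma adjusted p = 0.157) and the average Tcf7 difference -0.47 ± 0.13 (adjusted p = 0.234), and neither passed.

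Of the single comparisons of Ctla2a, DKO against Tcf1KO had the largest difference, 0.64 ± 0.19 (adjusted p = 0.406), without overlap, where 12.6% of all tested genes had none. Tcf1KO against Ctrl gave -0.59 ± 0.19 (adjusted p = 0.749), and Id2KO against Ctrl 0.41 ± 0.19 (adjusted p = 0.517). The last was 0.24 without Ctrl replicate 1, 0.63 without the 3 libraries of lowest weight and 0.18 ± 0.23 with the other-lineage score as a term. The value of this gene is uncertain, since 15.6% of its 76-base transcript windows also occur in other genes, and how reads in such windows were counted is not given in the sources used here.

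Its close relative Ctla2b (chromosome 13, 60895350 to 60897447, minus strand) has 62.7% of its own windows in other genes, most of them in Gm49391, which is also the gene that holds most of the shared windows of Ctla2a. It stood at 37.7, 31.2 and 31.4 FPKM in Ctrl and 49.9, 45.3 and 37.5 in Id2KO. It was at 32.7, 21.1 and 25.5 FPKM in Tcf1KO and at 31.0, 29.8 and 47.2 in DKO. The group means of both genes were highest in Id2KO and lowest in Tcf1KO, and Ctla2b was not called in any comparison. Of the cathepsin genes Ctsl, Ctsb, Ctsc and Ctsw, 0 of 4 were called, and Ctsw, a protease of cytotoxic lymphocytes, had the highest level (204 ± 27.1 FPKM in Ctrl).

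Thy1, a small glycolipid-anchored surface protein of T cells and some NK cells (ENSMUSG00000032011, chromosome 9, 44043384 to 44048579, plus strand), overlapped between all groups. It had 191, 151 and 229 FPKM in Ctrl and 157, 212 and 254 in Id2KO. It had 165, 229 and 276 FPKM in Tcf1KO and 256, 189 and 234 in DKO. The average Id2 difference was 0.08 ± 0.17 (interval -0.30 to 0.46, limma adjusted p = 0.914) and the average Tcf7 difference 0.18 ± 0.17 (interval -0.20 to 0.55, adjusted p = 0.795). The order of libraries by Thy1 matched that by the T and NKT markers in 0 of 4 groups.

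Cd7, an immunoglobulin superfamily receptor of early T and NK cells (ENSMUSG00000025163, chromosome 11, 121036747 to 121039418, minus strand), likewise overlapped throughout. Its levels were 126, 85.4 and 121 FPKM in Ctrl and 83.4, 140 and 84.4 in Id2KO. They were 87.0, 110.1 and 99.9 FPKM in Tcf1KO and 103, 154 and 117 in DKO. The average Id2 difference was 0.09 ± 0.17 (interval -0.28 to 0.46, adjusted p = 0.894 with limma), and the average Tcf7 difference 0.08 ± 0.17 (interval -0.29 to 0.45, adjusted p = 0.924).

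Among the CD7 partners, the ligand-related gene Sectm1b was at 0 in all 12 libraries and Sectm1a in 11. Lgals1, the gene of galectin-1, which binds CD7, was at 135 ± 23.3 FPKM in Ctrl and 129 ± 36.6 in Id2KO, against 107 ± 3.43 for Tcf1KO and 60.1 ± 23.8 for DKO (SD, n = 3). Its DKO difference from Ctrl was -1.22 ± 0.29 (limma adjusted p = 0.161) and did not pass.

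Il6ra, the ligand-binding chain of the interleukin-6 receptor (ENSMUSG00000027947, chromosome 3, 89864059 to 89913196, minus strand), varied widely within Ctrl, Id2KO and Tcf1KO and less within DKO. It had 4.08, 7.23 and 1.54 FPKM in Ctrl, and 0.421, 0 and 8.08 in Id2KO. It had 9.45, 8.73 and 2.69 FPKM in Tcf1KO and 4.22, 3.28 and 2.41 in DKO. In Id2KO replicate 2 no read was recovered, which allows up to 0.0632 FPKM at 3 reads (counting error only), while replicate 3 of the same group had 470 reads. The average Id2 difference was -0.89 ± 0.53 (interval -2.06 to 0.28, limma adjusted p = 0.601), and it was -0.58 without Id2KO replicate 2 and -1.38 without Id2KO replicate 3.

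The 8 monocyte and macrophage markers ordered the libraries as Il6ra did in 4 of 4 groups. Their sums were 443, 537.6 and 199 FPKM in Ctrl and 85.7, 74.3 and 341 in Id2KO, by replicate. They were 730.4, 483.7 and 179 FPKM in Tcf1KO and 481, 209 and 88.7 in DKO. The other-lineage score holds these markers among its 38 genes, with neutrophil, basophil and erythroid markers. With that score as a term, the Il6ra difference turned to 0.70 ± 0.56 for Id2KO against Ctrl, from -1.01 ± 0.75. For the average Id2 effect it turned to 0.40 ± 0.41. The part of the monocyte markers alone in the Il6ra difference was not tested. The genes nearest to Il6ra in profile were Cd74 (0.33), Cybb (0.35) and Cdr2 (0.35); Cd74 encodes the invariant chain of MHC class II and Cybb a subunit of the phagocyte oxidase.

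Il6st, the signalling chain gp130 that pairs with the receptor, had 9.15 ± 2.38 FPKM in Ctrl and 8.53 ± 3.85 in Id2KO, against 13.6 ± 3.10 for Tcf1KO and 14.1 ± 4.02 for DKO (SD, n = 3). Of the 9 genes of this axis read here, Il6, Il6st, the kinases Jak1, Jak2 and Tyk2, the transcription factor gene Stat3, the feedback inhibitor Socs3 and the sheddases Adam10 and Adam17, 0 were called. Jak2 came nearest, at 12.2 ± 2.21 FPKM in Id2KO and 21 ± 0.315 in DKO (difference 0.75 ± 0.15, limma adjusted p = 0.121).

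Cd93, a C-type lectin-like receptor of early B cells, monocytes and endothelium (ENSMUSG00000027435, chromosome 2, 148436640 to 148443563, minus strand), had 4.34, 3.61 and 4.08 FPKM in Ctrl and 1.72, 1.57 and 3.71 in Id2KO. It had 5.48, 5.36 and 5.49 FPKM in Tcf1KO and 5.18, 1.91 and 5.12 in DKO. Tcf1KO was above Ctrl and DKO without overlap, where 10.7% and 12.6% of all tested genes had none. Within their groups, 1 low DKO library and 1 high Id2KO library stood apart. The average Id2 difference was -0.53 ± 0.22 (limma adjusted p = 0.394), or -0.35 without DKO replicate 2, and the difference of DKO from Tcf1KO, -0.43 ± 0.31 (adjusted p = 0.868), became -0.07 without that library. Nearest in profile were Tmx4 (0.26), Arrdc3 (0.26) and Ehd1 (0.27). Of its relatives and ligand, Cd248, Clec14a, Thbd and Mmrn2, 0 of 4 passed the filter, and Cd248 was at 0 in all libraries.

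Lgals3 (ENSMUSG00000050335, chromosome 14, 47367751 to 47386160, plus strand) had 3.11, 2.83 and 3.61 FPKM in Ctrl and 0.862, 2.33 and 1.67 in Id2KO. It had 4.64, 3.6 and 2.46 FPKM in Tcf1KO and 4.69, 4.95 and 1.98 in DKO. All Id2KO libraries lay below all Ctrl libraries, where 13.9% of all tested genes had no overlap in either direction. The Id2KO difference was -0.71 ± 0.31 (limma adjusted p = 0.486) and fell to -0.31 ± 0.37 with the other-lineage score as a term. DKO against Id2KO gave 0.87 ± 0.31 (adjusted p = 0.329). Of the galectin list, Lgals1, Lgals8, Lgals9, the ligand Lgals3bp and the glycosyltransferase Mgat5, 0 of 5 were called, and Mgat5 had 7.97 ± 0.359 FPKM in Ctrl and 12.1 ± 1.80 in Id2KO (adjusted p = 0.320).

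Rgs1, which speeds the shut-off of G protein signals from chemokine receptors (ENSMUSG00000026358, chromosome 1, 144242296 to 144249242, minus strand), stood at 38.0, 20.7 and 51.2 FPKM in Ctrl and at 10.8, 11.2 and 26.1 in Id2KO. It stood at 46.1, 17.7 and 34.3 FPKM in Tcf1KO and at 57.1, 16.6 and 47.8 in DKO. Replicate 2 was the lowest library of Ctrl, Tcf1KO and DKO, and the groups overlapped in every comparison. The differences with the widest span were -1.17 ± 0.53 for Id2KO against Ctrl (interval -2.34 to 0.00, limma adjusted p = 0.517) and 1.22 ± 0.53 for DKO against Id2KO (adjusted p = 0.431). The first became -1.91 without the 3 libraries of lowest weight. With the replicate number as a term in the fit it was -1.17 ± 0.32 (limma unadjusted p = 0.00518, adjusted p = 0.261).

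The genes nearest to Rgs1 in profile were Dusp1 (0.31), Rgs2 (0.32) and Klf6 (0.40). Dusp1, an early-response phosphatase gene, had 127, 59.3 and 224 FPKM in Ctrl and 62.1, 53.0 and 141 in Id2KO. It had 141, 65.4 and 151 FPKM in Tcf1KO and 197, 49.4 and 169 in DKO, and replicate 2 was the lowest library in all 4 groups. Across the RGS list of other RGS genes and the G protein subunits Gnai2, Gnai3 and Gnaq, 0 of 10 were called. Rgs10 had 1.35 ± 1.21 FPKM in Id2KO and 5.34 ± 0.177 in DKO (SD, n = 3), and Gnai2 118 ± 11.3 in Ctrl and 106 ± 9.27 in Id2KO.

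**Figure D4:**
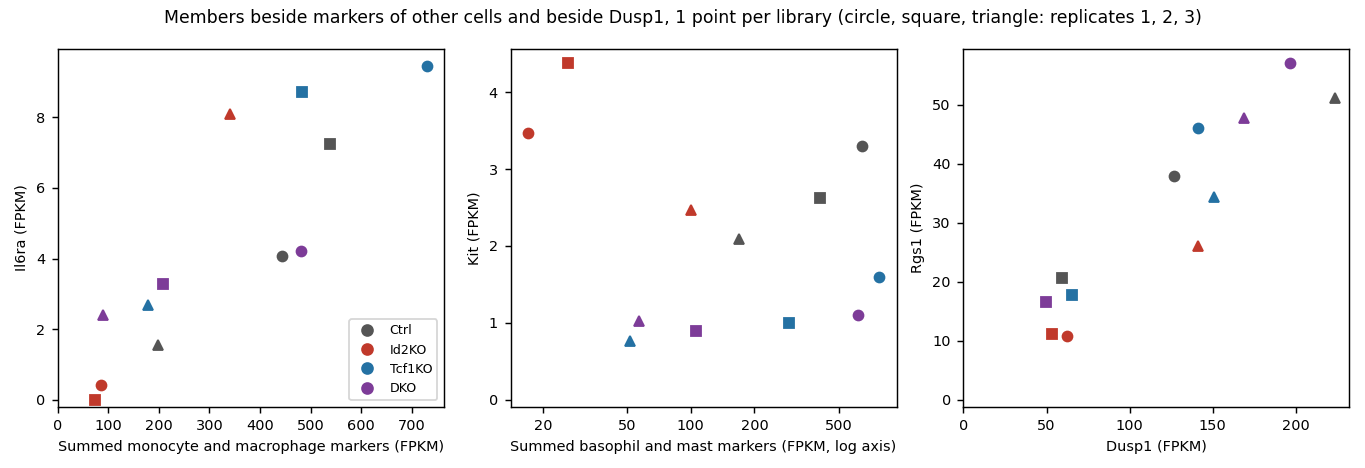
FPKM per library of Il6ra against the summed monocyte markers, of Kit against the summed basophil and mast markers (log axis), and of Rgs1 against Dusp1, with 1 point per library. Il6ra tends to be higher where the monocyte sum is higher. Kit is at most 1.60 FPKM in the Tcf1KO and DKO libraries, whose basophil and mast sums run from 51.6 to 775.7 FPKM. Dusp1 was picked as the tested gene nearest to Rgs1 in profile over these same libraries. The rise of Rgs1 with Dusp1 therefore follows from that choice and is not a separate result.

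Over all partner lists together, 46 of 55 genes were tested and 0 were called by limma or by voom in any of the 8 comparisons, with 1 to 6 of the 46 at an unadjusted p under 0.05 in each limma fit. Of all tested genes, limma called between 0% and 0.371%, and between 4.8% and 10.9% had an unadjusted p under 0.05. At such low shares of calls, 0 called says little about the partners.

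Other genes of NK maturation gave the setting of these values. Of 11 tested genes of less mature NK cells, 2 were called higher in Id2KO than in Ctrl, where 0.178% of all tested genes were called. They were Id3 (2.56 ± 0.33, limma adjusted p = 0.0102) and Tcf7 (1.04 ± 0.16, adjusted p = 0.0279). Cxcr3 joined them in the average Id2 effect (0.81 ± 0.13, adjusted p = 0.0300), where 0.299% of all genes were called. In Id2KO 8 of the 11 had a positive difference and 3 a negative difference. The 3 were Il7r (25.9 ± 11.7 FPKM in Ctrl and 16.6 ± 6.06 in Id2KO, SD, n = 3), Itgav and Tnfsf10. The median difference of the 11 in Id2KO was 0.60, beside -0.01 for the 10 genes studied here and -0.01 for all genes. Of 12 genes of mature NK cells, 6 were called lower in the average Id2 effect, Klrg1 (-2.93), S1pr5 (-2.47), Cma1 (-2.27), Gzmb (-1.72), Itgam (-1.45) and Prdm1 (-1.17), with a median over the list of -1.30. There 11 of the 12 had a negative difference. Ly6c2 alone had a positive difference (256 ± 38.6 FPKM in Tcf1KO and 336 ± 48.6 in DKO, SD, n = 3). These lists were chosen with earlier results known and their directions are not independent evidence.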

How the data were processed

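RNA was measured in 12 libraries, 3 in each of 4 groups that follow the sample titles. The deposited values are FPKM, made by the authors. Per the submitters' processing notes, Trimmomatic 0.33, TopHat2 2.1.0, HTSeq 0.6.1, edgeR without a version and the genome mm10 were used; the gene annotation and the treatment of reads shared by genes are not given in the sources used here.

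Symbols and positions came from GENCODE M21 (GRCm38, the same build as mm10) for 32938 gene identifiers. Tests used log2(FPKM + 1) of genes that reached an FPKM of 1 in 3 libraries or more. They were run with limma 3.58.1 in R 4.3.3, with all 12 libraries and group as the term, a variance trend, two-sided tests and Benjamini-Hochberg adjustment over all tested genes at 0.05. Whole reads were recovered from the FPKM steps for 23707 of 23707 genes above 0 (tolerance 0.001 reads, widened to at most 0.05) and used in limma voom as an alternative; they sum to 13975523 to 20208160 reads per library. Mitochondrial ribosomal RNA took 23.6% to 32.4% of reads.

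The alternatives were an added 0.1 or 0.5 in place of 1, every gene above 0 or only those reaching FPKM 5, scaling to equal medians or quantiles, array weights, a constant prior variance, a replicate block, separate fits per pair of groups, voom, a covariate of other-lineage markers, and the removal of single libraries or of the 3 with lowest weight. Promoter windows came from the RefSeq table on GRCm38.p6, and protein sequences were not used here. The members, gene lists and tests were chosen with earlier results of these data known. All 10 members were named in every comparison, with partner genes and the 3 genes nearest in profile to each member whose group means spanned 1 or more on the log2 scale. Tcf7, Id2, list genes called and the values of partners were chosen after they were seen. One gene of the partner lists is not reported here, and the counts leave it out. The fit was tested on simulated data. Tables and figures used Python 3.11.15, pandas 2.3.3, numpy 2.4.6, scipy 1.17.1 and matplotlib 3.10.9.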

Additional observations from a re-analysis of the deposited data

How the results depend on the processing

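Of 782 single-gene values under alternatives, over 32 pairs of gene and comparison, 757 kept their direction and side of the threshold, 14 no longer passed, 9 newly passed and 2 reversed. Only 1 pair passed in the main analysis, Kit in the average Tcf7 effect, so most of the 757 are values that passed in neither. That Kit pair holds all 14 losses, out of its 23 alternatives. Both reversed values were of Il6ra with the other-lineage score as a term, at 0.70 for Id2KO against Ctrl and 0.40 for the average Id2 effect. The count of the 10 genes called in Id2KO against Ctrl was 0, and 1 with array weights, 1 with median scaling and 2 with voom. In the average Id2 effect it was 0, and 1 with array weights, 2 with median scaling and 2 with voom. In the average Tcf7 effect it was 1 (Kit), and 0 with a filter at FPKM 5, which Kit did not pass, 0 with no filter (Kit adjusted p = 0.0917), 0 with the score as a term (0.0651), 0 without the 3 libraries of lowest array weight (0.0837), and 0 to 1 when 1 library was left out. The cause was not tested. In the other comparisons 0 were called under every alternative run. The Cd27 to Itgam ratio difference stayed between 1.94 and 2.39 over 16 alternatives.

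The replicate number was not used as a pairing in the main analysis. The highest correlation of deviations between libraries of different number was 0.17. Of 18 same-numbered pairs, 6 had deviations correlated above 0.1 (range -0.14 to 0.27). Those 6 were all among Ctrl, Tcf1KO and DKO, and 8 of 12 libraries correlated best with their own number, a hint from the data and not from the design. With the replicate block the count of the 10 genes stayed at 0 in 7 comparisons and at 1 in the average Tcf7 effect (Kit adjusted p = 0.0454). Over all genes it took the calls from 7 to 15 for DKO against Tcf1KO and from 46 to 28 for the average Tcf7 effect. Calls over all genes ranged across alternatives from 8 to 33 for Id2KO against Ctrl (22 in the main analysis), 0 to 7 for Tcf1KO (0), 0 to 27 for DKO (18), 0 to 31 for DKO against Id2KO (15), 0 to 15 for DKO against Tcf1KO (7), 0 to 1 for the interaction (0), 6 to 85 for the average Id2 effect (37) and 5 to 89 for the average Tcf7 effect (46). At 3 libraries a group, Kit (180 to 788 reads), Cd93 (149 to 741), Lgals3 (63 to 402) and Il6ra (0 to 542) rest on the fewest reads.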
